A study of Zea mays with 6 samples.

Results

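The 8 genes described here act at the origins and forks of DNA replication and were measured in endosperm of maize (Zea mays), the part of the kernel that stores starch and protein. They were taken by identifier, 8 of the 39448 genes in each table, and every identifier matched 1 gene of the reference table under the given name. MCM6 (GRMZM2G021069), MCM7 (GRMZM2G065205), orc2 (GRMZM2G117238) and orc3 (GRMZM2G381822) are the 4 genes of origin licensing. SLD5 (GRMZM2G164325), PCNA (GRMZM2G030523), pcna2 (GRMZM2G108712) and FEN1 (GRMZM2G121262) are the 4 genes of the fork and of strand processing.

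RNA was sequenced from endosperm of field-grown plants 10 days after pollination, in 3 libraries of wild type (WT) and 3 of floury3 (fl3), a mutant with soft, opaque kernels. The series' design text gives the libraries of a genotype as independent biological replicates. The labels used here name neither the inbred background nor the dose of the fl3 allele, nor how many kernels or ears went into a library. Levels are in FPKM, fragments scaled by gene length and by the mapped fragments of the library, so levels of different genes can be compared per length.

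Replication starts where the origin recognition complex, to which orc2 and orc3 belong, sits on DNA and helps to load the MCM helicase ring, of which MCM6 and MCM7 are subunits. SLD5 is a subunit of GINS, the complex that joins the loaded ring and turns it into a working helicase. At the fork, PCNA is the sliding clamp that holds DNA polymerases and repair enzymes on the strand, and FEN1 is the nuclease that trims the flaps between fragments of the lagging strand. Maize endosperm first multiplies its cells and then goes over to endoreduplication, in which DNA is copied without division, so these genes serve both kinds of cycle.

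The libraries held 23808 to 24755 genes above 0, and FPKM summed to between 465741 and 480602 per library. Read counts were not recovered, so the depth behind each value is unknown. Genes that averaged 1 FPKM or more over the 6 libraries were tested, 17272 in all. A log2 change below is the difference of mean log2(FPKM + 1), fl3 minus WT. Its median over all tested genes was 0.14, or -0.016 after median-of-ratios scaling. Zein and other endosperm genes reached 34733 to 43414 FPKM in sum in WT and 12628 to 17824 FPKM in fl3 over 29 listed genes. The 13 listed genes of green maternal tissue summed to at most 0.673 FPKM in any library.

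MCM6 (on the values as deposited, not after median-of-ratios scaling or quantile normalization) and FEN1 rose in fl3, MCM7, orc2 and orc3 fell, and SLD5, PCNA and pcna2 did not pass the test (limma, adjusted p under 0.05). Of the licensing genes 1 rose and 3 fell, while of the fork and processing genes 1 rose, 0 fell and 3 did not pass. Thus 5 of 8 were called, where 67.3% of all tested genes were called, 43.5% as higher and 23.8% as lower. The share of called genes was near that of all genes, and the changes were small, with a median absolute log2 change of 0.21 against 0.38 over all tested genes. The SD within a genotype (log2 scale) had a median of 0.038 over licensing genes and 0.12 over fork and processing genes. As deposited, SLD5 (log2 change 0.19) did not pass while MCM6 (0.20) did. The genotypes did not overlap for the same 5 genes, as for 71.7% of tested genes (45.8% with fl3 above WT and 25.9% with fl3 below). In bulk tissue, fewer cells that express a gene and less RNA per cell cannot be told apart.

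**Figure D1:**
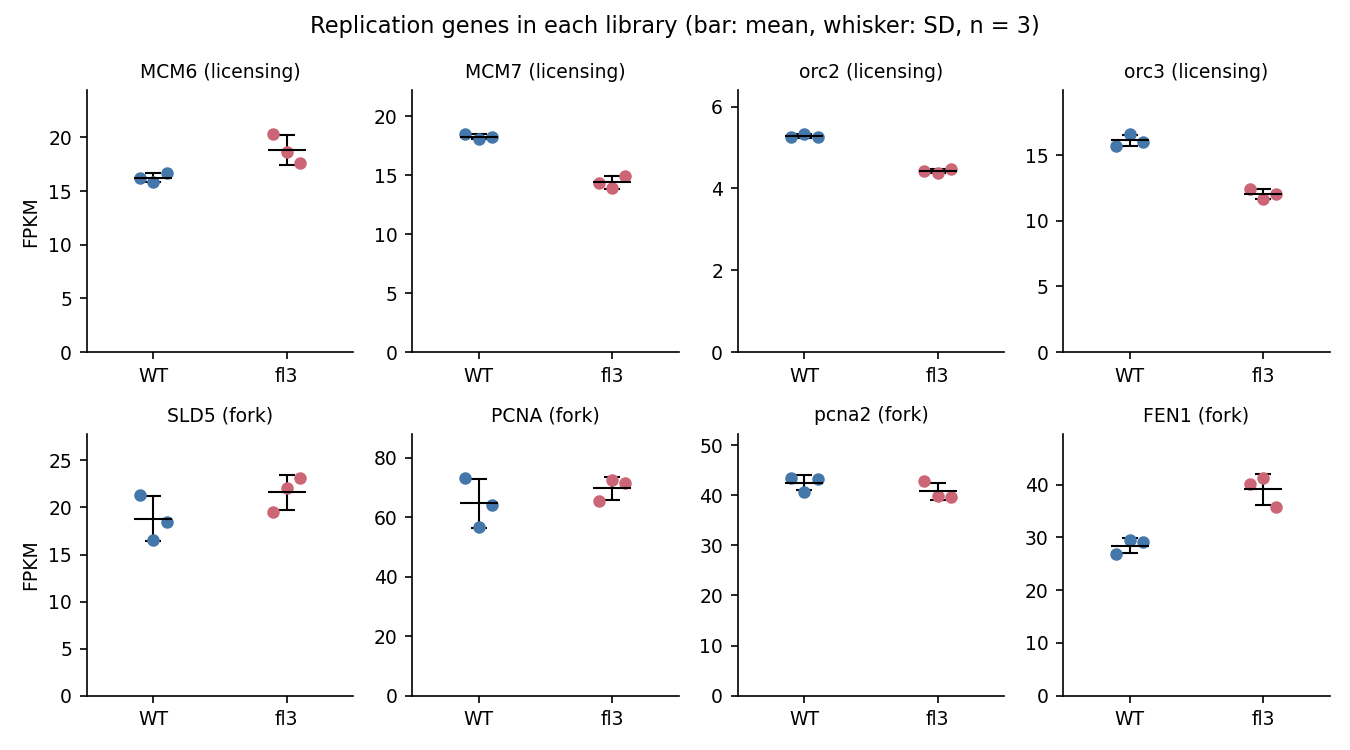
FPKM of the 8 genes (vertical axes, from 0) in the 3 WT libraries (blue) and the 3 fl3 libraries (red), with the mean as a bar and the SD as a whisker. MCM7, orc2 and orc3 lie lower in every fl3 library than in any WT library, MCM6 and FEN1 lie higher, and the other 3 genes overlap.

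The MCM subunits went opposite ways on the values as deposited, while after either other scaling MCM7 fell and MCM6 did not pass. MCM7 stood at 18.5, 18.1 and 18.2 FPKM in WT replicates 1 to 3 and at 14.3, 13.9 and 15.0 FPKM in fl3 replicates 1 to 3. Every fl3 library was below every WT library, and the libraries of a genotype lay close together. The mean went from 18.3 ± 0.196 to 14.4 ± 0.535 FPKM (SD, n = 3), a 1.27-fold lower level in fl3 (log2 change -0.32, SE 0.057, limma adjusted p = 0.00101).

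MCM6, another subunit of the same ring, was at 16.3, 15.9 and 16.7 FPKM in WT and at 20.3, 18.7 and 17.6 FPKM in fl3. The fl3 libraries were all above the WT libraries, but the lowest of them came within 1 FPKM of the highest WT library. Means were 16.3 ± 0.397 and 18.8 ± 1.38 FPKM (SD, n = 3), a 1.16-fold rise (log2 change 0.20, SE 0.067, limma adjusted p = 0.0264). This rise depended on the scaling, with a log2 change of 0.024 (limma adjusted p = 0.761) under median-of-ratios scaling and 0.081 (limma adjusted p = 0.314) under quantile normalization. It also did not pass without WT replicate 1, WT replicate 2, fl3 replicate 1 or fl3 replicate 2, with limma adjusted p of 0.0518, 0.0774, 0.0796 and 0.0588.

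The ratio of MCM6 to MCM7 within a library is the same under any factor that scales a whole library. It was 0.878, 0.875 and 0.913 in WT and 1.42, 1.34 and 1.17 in fl3. MCM7 was thus the higher of the pair per length in every WT library and MCM6 in every fl3 library. The mean ratio went from 0.889 ± 0.0212 to 1.31 ± 0.125 (SD, n = 3). As deposited, every fl3 library was above every WT library in MCM6 and below in MCM7. The ratio therefore could not overlap between genotypes. The ratios in this text other than the pcna2 share were chosen after the values were seen, and no test was run on any of them.

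The subunits of the origin recognition complex among the 8 genes both fell. The gene orc3 stood at 15.7, 16.6 and 16.0 FPKM in WT and at 12.4, 11.7 and 12.1 FPKM in fl3. The groups were well apart, with a gap of over 3 FPKM between the lowest WT and the highest fl3 library. The mean went from 16.1 ± 0.446 to 12.0 ± 0.368 FPKM (SD, n = 3), 1.34-fold lower (log2 change -0.39, SE 0.059, limma adjusted p = 0.000402), the deepest fall of the 8 genes on the values as deposited.

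The gene orc2 had the lowest level of the 8 genes, with 5.25, 5.33 and 5.26 FPKM in WT and 4.43, 4.38 and 4.46 FPKM in fl3. Its libraries varied least within a genotype, with a pooled SD of 0.011 on the log2 scale where the median tested gene had 0.10. Means were 5.28 ± 0.0416 and 4.42 ± 0.0445 FPKM (SD, n = 3; log2 change -0.21, SE 0.069, limma adjusted p = 0.024). Without WT replicate 2, WT replicate 3, fl3 replicate 2 or fl3 replicate 3 the fall did not pass. The limma adjusted p was then 0.0607, 0.0612, 0.0679 and 0.0528. The SE in these tests draws on the variance of all tested genes (eBayes with trend), so the lost calls do not show spread among the orc2 libraries. The fall itself hardly changed in size when any single library was left out, with log2 changes from -0.216 to -0.205. With median-of-ratios scaling and quantile normalization it was deeper, at log2 changes of -0.36 and -0.45 (limma adjusted p = 0.00154 and 0.000477).

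The listed genes of other subunits did not pass as lower. The gene orc1 (GRMZM2G455243), was at 6.04, 6.69 and 6.49 FPKM in WT and at 10.3, 9.48 and 9.60 FPKM in fl3, and rose, with means of 6.41 ± 0.334 and 9.78 ± 0.419 FPKM (SD, n = 3; log2 change 0.54, SE 0.070, limma adjusted p = 0.000178). The gene orc4 (GRMZM5G876520) had 20.3, 22.2 and 22.2 FPKM in WT and 23.0, 24.0 and 23.6 FPKM in fl3, a difference that did not pass (log2 change 0.12, limma adjusted p = 0.0928; -0.054 under median-of-ratios scaling). Within a library, orc1 stood at 0.398 ± 0.0116 of the level of orc3 in WT and at 0.812 ± 0.0155 in fl3 (SD, n = 3). The ratio of orc4 to orc3 went from 1.34 ± 0.0461 to 1.96 ± 0.101, while that of orc2 to orc3 moved less, from 0.328 ± 0.00657 to 0.368 ± 0.00908. No library of fl3 overlapped one of WT in any of these 3 ratios. For orc1 and orc4 this follows from the single genes. Every fl3 library was above every WT library in orc1 and in orc4, and below in orc3. Of the 4 listed subunits orc4 was the highest in every fl3 library and also in every WT library, and orc2 the lowest.

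**Figure D2:**
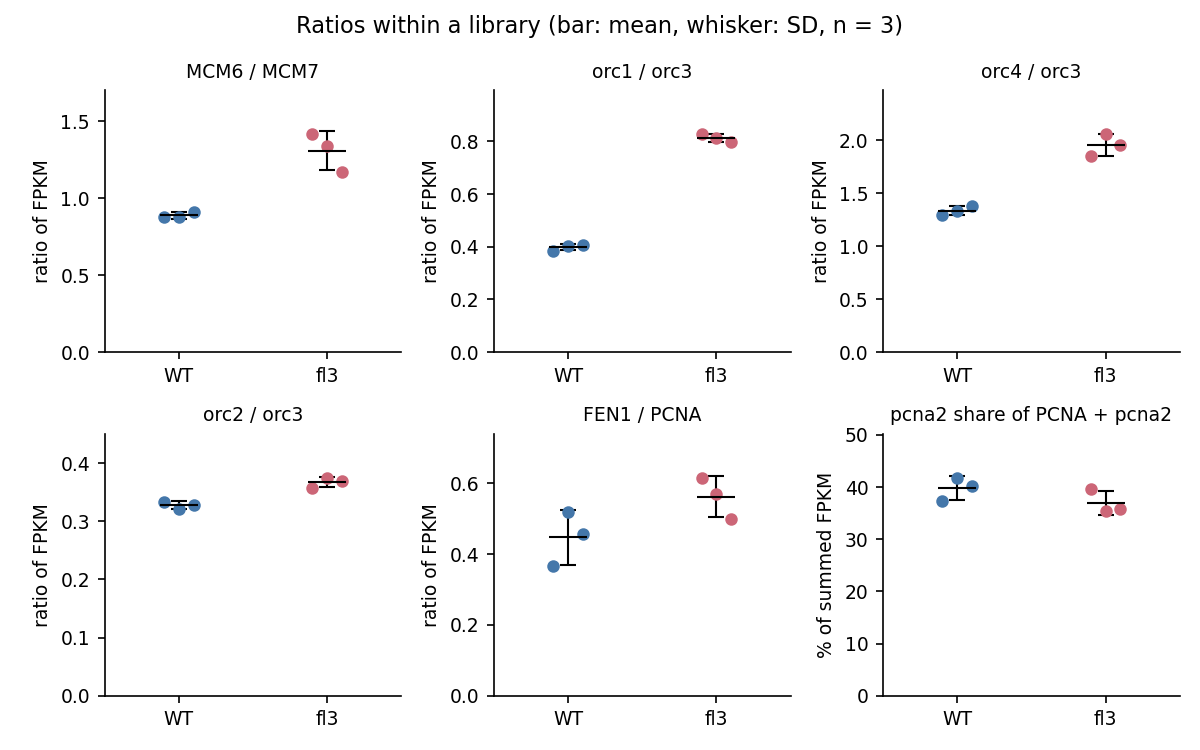
Ratios of FPKM between genes of 1 library (vertical axes, from 0), and the share of pcna2 in the sum of both PCNA genes in percent, in 3 WT libraries (blue) and 3 fl3 libraries (red), with mean and SD. MCM6 / MCM7 rises past 1 in fl3, orc1 / orc3 goes from 0.398 to 0.812, and FEN1 / PCNA and the pcna2 share overlap between genotypes.

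At the fork, FEN1 changed and the clamp genes did not pass. FEN1 stood at 26.8, 29.4 and 29.1 FPKM in WT and at 40.2, 41.3 and 35.7 FPKM in fl3. Every fl3 library was above every WT library by more than the spread within WT. The mean went from 28.5 ± 1.46 to 39.1 ± 2.96 FPKM (SD, n = 3), 1.37-fold higher (log2 change 0.44, SE 0.071, limma adjusted p = 0.000599), the largest change of the 8 genes on the values as deposited. The call was kept under median-of-ratios scaling (log2 change 0.26) and quantile normalization (0.36).

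PCNA had the highest level of the 8 genes, above 92.9% of tested genes, with 73.3, 56.7 and 64.0 FPKM in WT and 65.3, 72.5 and 71.4 FPKM in fl3. The highest library of all was WT replicate 1 and the lowest WT replicate 2, so the fl3 values lay inside the WT range. Means were 64.6 ± 8.33 and 69.7 ± 3.92 FPKM (SD, n = 3; log2 change 0.11, 95% interval -0.097 to 0.33, limma adjusted p = 0.3). Without WT replicate 1 the difference passed (log2 change 0.21, limma adjusted p = 0.0435), and under median-of-ratios scaling it turned to -0.069 (limma adjusted p = 0.536).

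The second clamp gene, pcna2, was at 43.5, 40.7 and 43.2 FPKM in WT and at 42.8, 39.8 and 39.7 FPKM in fl3. The groups overlapped, with means of 42.5 ± 1.51 and 40.7 ± 1.77 FPKM (SD, n = 3; log2 change -0.058, 95% interval -0.19 to 0.071, limma adjusted p = 0.385). Under median-of-ratios scaling it passed as a fall (-0.24 on the log2 scale, limma adjusted p = 0.00606), and under quantile normalization it did not (-0.13, limma adjusted p = 0.0714). PCNA was the higher of the clamp genes in every library. The share of pcna2 in the FPKM of both was 37.2%, 41.8% and 40.3% in WT and 39.6%, 35.4% and 35.7% in fl3, with means of 39.8% ± 2.32 and 36.9% ± 2.34 (SD, n = 3) and ranges that overlapped. The genes are copies of one another, so reads that the authors' counting could assign to either make the level of each uncertain.

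SLD5 had 21.3, 16.6 and 18.5 FPKM in WT and 19.5, 22.1 and 23.2 FPKM in fl3. As for PCNA, WT replicate 1 was the highest and WT replicate 2 the lowest of the WT libraries, and fl3 replicate 1 the lowest of fl3. Means were 18.8 ± 2.40 and 21.6 ± 1.88 FPKM (SD, n = 3; log2 change 0.19, 95% interval -0.033 to 0.42, limma adjusted p = 0.113). The difference passed without WT replicate 1 (log2 change 0.28, limma adjusted p = 0.0243) and with library weights (0.24, limma adjusted p = 0.0376), and was 0.017 under median-of-ratios scaling. SLD5 and PCNA were the most variable of the 8 genes, with pooled SDs of 0.15 and 0.14 on the log2 scale.

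**Figure D3:**
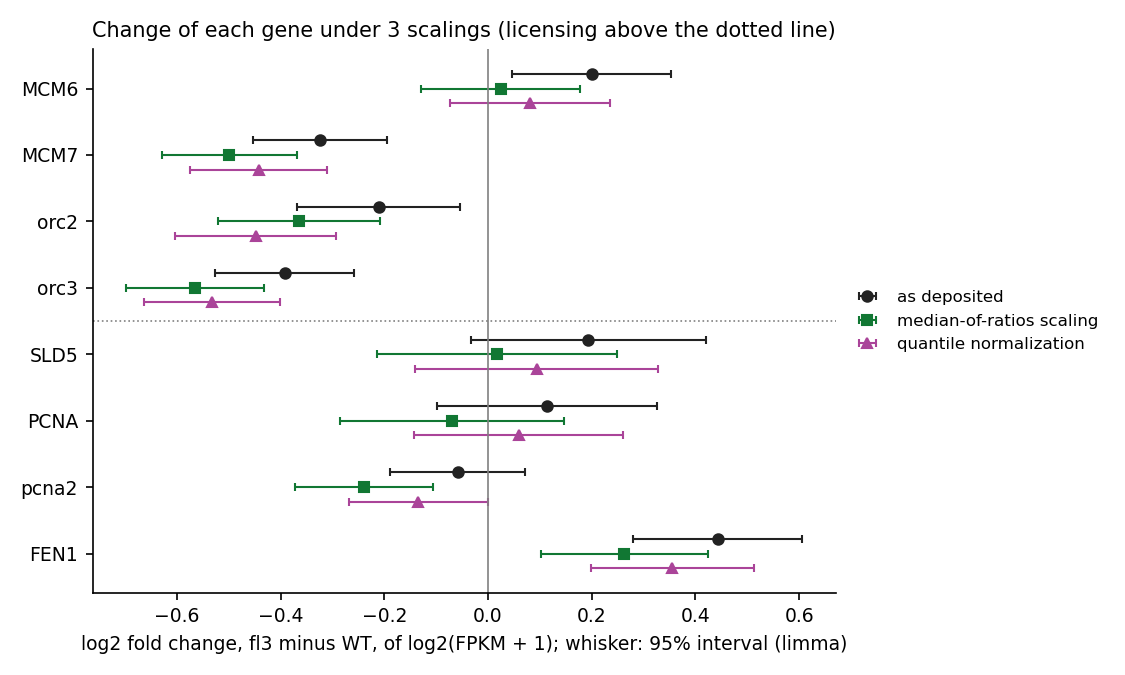
Log2 change of each gene (fl3 minus WT, of log2(FPKM + 1)) with its 95% interval from limma, for FPKM as deposited (circles), median-of-ratios scaling (squares) and quantile normalization (triangles), with the 4 licensing genes above the dotted line. MCM7, orc2 and orc3 stay below 0 and FEN1 above 0 in all 3, whereas the interval of MCM6 clears 0 as deposited and not under the other scalings.

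Set side by side, the licensing genes had a mean log2(FPKM + 1) of 3.78, 3.78 and 3.79 in WT and 3.63, 3.57 and 3.59 in fl3. The fork and processing genes had 5.24, 5.07 and 5.17 in WT and 5.31, 5.37 and 5.33 in fl3. The fork mean exceeded the licensing mean by 1.38 ± 0.0878 in WT and by 1.74 ± 0.0635 in fl3 (SD, n = 3). This difference could not overlap between genotypes, since the licensing means were all lower and the fork means all higher in fl3. No test was run on these means, since the genes were chosen with results known. The median log2 change was -0.27 over the licensing genes and 0.15 over the fork and processing genes, beside 0.14 over all tested genes. Under median-of-ratios scaling the same medians were -0.43 and -0.026, beside -0.016 over all tested genes. The licensing genes then held 0 that rose and 3 that fell (orc2, orc3 and MCM7), against backgrounds of 32.8% and 34.5%, and the fork genes 1 that rose (FEN1) and 1 that fell (pcna2).

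Across the 6 libraries, the distance between profiles was taken as the root mean square difference of their deviations from the WT mean on the log2 scale. Among the 8 genes the closest pairs were MCM7 with orc3 (0.063) and SLD5 with PCNA (0.066). Among 1698 tested genes with a name, the closest to PCNA was a histone H4 gene (H4C13, GRMZM2G181153; distance 0.033) and the second closest fea2 (GRMZM2G104925; 0.050). That histone gene had means of 92.2 FPKM in WT and 100.9 FPKM in fl3. The closest to FEN1 were PPR10 (GRMZM2G177169) and mre11A (GRMZM2G106056), a gene of the nuclease that processes DNA breaks, at 0.031 and 0.034. For MCM7 they were the ribosomal protein gene rps4 (GRMZM2G035017) and the annexin gene Ann7 (GRMZM2G064993), at 0.025 and 0.029, and for MCM6 aap1 (GRMZM2G120302; 0.028) and gtc102 (GRMZM5G806358; 0.036). For orc2 they were SnRK2.8 (GRMZM2G138861) and mTRF21 (GRMZM2G159766), at 0.020 and 0.024, and for orc3 MTERF4 (GRMZM2G029933) and PP2C (GRMZM2G166035), at 0.030 and 0.034. For SLD5 they were homeobox2 (GRMZM2G094935) and rpl32 (GRMZM2G110328), at 0.050 and 0.055, and for pcna2 CNX (GRMZM2G022180; 0.025) and CoAp15.2 (GRMZM2G112535; 0.029). With 6 libraries in 2 groups and most genes called, such closeness is a description of these values. PPR10, with means of 0.986 FPKM in WT and 1.72 FPKM in fl3, and homeobox2, with 2.11 and 2.45 FPKM, were low. At such levels the 1 added in log2(FPKM + 1) shrinks a change, which bears on their distances.

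Of the 3 other replication genes listed by name pattern, orc1 rose, orc4 did not pass and Top1 (GRMZM2G092451), a topoisomerase gene, fell. Of all tested genes 43.5% rose and 23.8% fell. Top1 was at 62.2, 73.4 and 67.0 FPKM in WT and at 46.3, 47.5 and 45.1 FPKM in fl3 (log2 change -0.53, SE 0.067, limma adjusted p = 0.000156). The list of E2F and retinoblastoma genes, a family that controls transcription of replication genes in plants, held retinoblastoma-related and DP genes but no E2F gene. Of these, 3 of 5 rose, 1 fell and 1 did not pass, beside the same 43.5% and 23.8% of all tested genes. The retinoblastoma-related gene RBR1 (GRMZM2G003043) fell from 15.5 ± 0.641 to 12.3 ± 0.834 FPKM and rbr3 (GRMZM2G033828) rose from 9.87 ± 0.452 to 14.0 ± 0.517 FPKM (SD, n = 3; limma adjusted p = 0.00367 and 0.000265). The E2F partner genes DP2 (GRMZM2G111510) and DP1 (GRMZM2G152757) rose, with log2 changes of 0.71 and 0.31, and RBR2 (GRMZM2G153150) stood at 5.32 ± 0.559 and 5.94 ± 0.840 FPKM (limma adjusted p = 0.309). The rise of DP1 did not pass under median-of-ratios scaling (log2 change 0.13).

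Other genes of the cell cycle are set beside the 8 genes. Of 9 tested cyclin and cell-cycle kinase genes 8 rose and 1 fell, beside 43.5% and 23.8% of all tested genes, at a median log2 change of 1.25 where all tested genes had 0.14. Among those that rose by most, cyclin9 (GRMZM2G017081) had a log2 change of 1.25 and cyclin4 (GRMZM2G310115) of 1.31. The gene cyc3 (GRMZM2G073671) had one of 1.33, cyc1 (GRMZM2G034647) of 1.39 and cyclin8 (GRMZM2G138886) of 1.40. The gene wee1 (GRMZM5G878541), a kinase that holds back division, fell (-0.97). Under quantile normalization 7 rose, and cyclin11 (GRMZM2G161382) did not pass (limma adjusted p = 0.317).

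Of 5 genes of ribonucleotide reductase, the enzyme that supplies deoxynucleotides, RNRS2 (GRMZM2G155546) rose (log2 change 2.52), RNRS1 (GRMZM2G060163), RNRS3 (GRMZM2G323679) and RNRL2 (GRMZM2G340527) fell (-0.84, -0.33 and -0.20), and RNRL1 (GRMZM2G304378) did not pass (0.47). That made 1 of 5 higher and 3 of 5 lower, beside the same 43.5% and 23.8%. RNRL1 was low and variable, at 2.25, 0.185 and 0.235 FPKM in WT and 1.49, 0.732 and 1.92 FPKM in fl3. Its pooled SD was 0.64 on the log2 scale (limma adjusted p = 0.293). Of 12 histone genes, whose products package newly made DNA, 5 did not pass, 4 rose and 3 fell, beside 43.5% and 23.8% of all tested genes. Under either other scaling 4 histone genes rose and 4 fell. Of all 17272 tested genes, 5659 rose and 5952 fell under median-of-ratios scaling, and 5549 and 5947 under quantile normalization. The median absolute log2 change of the histone genes was 0.38 as deposited, as over all tested genes. The genes his2b5 (GRMZM2G342515), Hist1h3b (GRMZM2G158526), his2b2 (GRMZM2G119071) and his1a (GRMZM2G401308) rose, with log2 changes of 0.64, 0.64, 0.53 and 0.49. An H4 gene (GRMZM2G084195) and histone2b1 (GRMZM2G071959) fell (-0.51 and -0.50). The difference between these lists and the 8 genes was not tested.

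**Figure D4:**
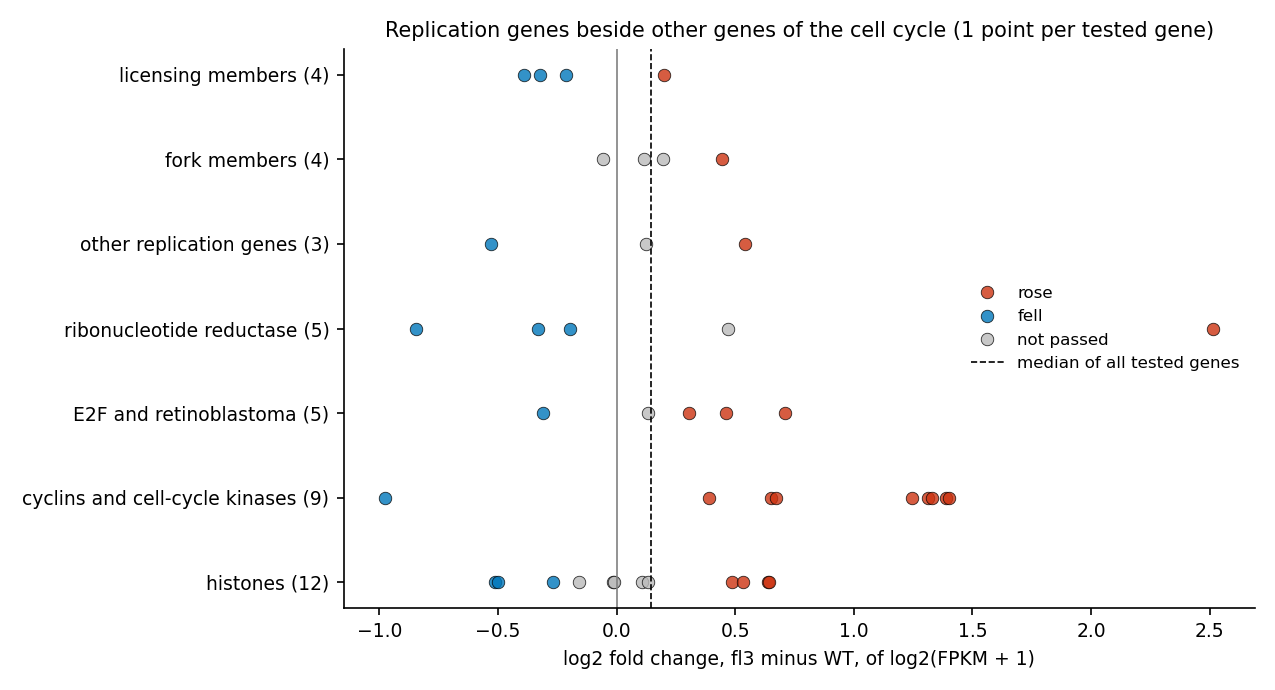
Log2 change (fl3 minus WT) of each tested gene, 1 point per gene, in the licensing and fork groups and in 5 lists of other genes, with genes that rose in red, that fell in blue and that did not pass in grey. The dashed line is the median of all tested genes (0.14), and the 8 replication genes lie between -0.39 and 0.44 while RNRS2 reaches 2.52.

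Some markers of regions within the kernel also differed between genotypes, where 43.5% of all tested genes rose and 23.8% fell. The 4 markers of the embryo-surrounding region summed to 141 to 178 FPKM in WT and to 460 to 598 FPKM in fl3, and all 4 rose. The 8 aleurone markers summed to 218 to 235 FPKM in WT and 292 to 307 FPKM in fl3, with 2 listed at 0 throughout. Of 6 tested, Nkd1 (GRMZM2G129261; means of 113 and 175 FPKM) and cr4 (GRMZM2G051637; 4.65 and 15.7 FPKM) rose and 0 fell, while under either other scaling Sal1 (GRMZM2G117935) and dek1 (GRMZM2G321753) also fell.

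The 10 basal transfer layer markers overlapped in sum, at 2735 to 3836 FPKM in WT and 2844 to 5363 FPKM in fl3, but single markers moved both ways. Of 9 tested, BETL1 (GRMZM2G082785; means of 566 and 1000.5 FPKM) and betl3 (GRMZM2G175976; 4.92 and 25.9 FPKM) rose, bap-1a (GRMZM2G008271; 77.4 and 12.3 FPKM) fell and 6 did not pass. That made 2 of 9 higher and 1 of 9 lower, beside 43.5% and 23.8% of all tested genes. In fl3 replicates 1 to 3, BETL1 was at 847, 1406 and 749 FPKM and betl3 at 14.0, 43.9 and 19.9 FPKM. Replicate 2 was the highest fl3 library for each of the 10 basal transfer layer markers. The 7 embryo markers overlapped in sum too, at 370 to 395 FPKM in WT and 378 to 443 FPKM in fl3. Of 4 tested, ole1 (GRMZM2G337229; means of 139.8 and 219 FPKM) and vp1 (GRMZM2G133398; 1.56 and 3.70 FPKM) rose, glb3 (GRMZM2G410134; 233 and 169 FPKM) fell and glb1 (GRMZM2G067919; 10.4 and 12.3 FPKM) did not pass. Thus 2 of 4 were higher and 1 of 4 lower, beside the same shares of all tested genes. Of the embryo markers below the filter, kn1 and glb2 stayed under 1 FPKM in every library, and lec1 (GRMZM2G011789) was at 0, 0.0421 and 0 FPKM in WT and at 1.66, 1.03 and 1.07 FPKM in fl3. The part of these regions in the values of the replication genes was not tested.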

How the data were processed

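The deposited values are FPKM, computed by the authors, with 1 table per library. Per the submitters' processing notes, FastQC, TopHat and Bowtie2 were used, with B73 RefGen_v3 as the genome build. Which program gave FPKM, which gene models it used and whether it used strand is not given in the sources used here. Whole reads could not be recovered: where WT replicate 1 and another library both had low values, at most 8.74% of their ratios were within 1% of the commonest one. No count test was run. Names came from RefSeq's maize table (Zm-B73-REFERENCE-NAM-5.0), whose build differs, so no coordinates are given; 18906 identifiers matched and 2632 had a name.

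The test covered the 17272 genes averaging 1 FPKM or more, all 8 replication genes among them. limma 3.58.1 (R 4.3.3; eBayes with trend) was fitted to log2(FPKM + 1), which understates changes of low genes, with a genotype term. p-values are two-sided, adjusted by the Benjamini-Hochberg method over all tested genes, with calls at 0.05. The procedure was tested on simulated data in which a small share of genes changed. That does not cover data such as these, where 67.3% of tested genes were called. Folds are ratios of mean FPKM. Exact permutation tests of 3 against 3 libraries cannot go below 0.1 and were not used. Alternatives changed the pseudocount (0.1 or 0.5), the filter (none, or 5 FPKM), scaling, variance trend, library weights, replicate block and each library in turn. Python 3.11.15, pandas 2.3.3 and matplotlib 3.10.9 were used.

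The members and lists were chosen with earlier results of these data known. All 8 genes are named, with up to 6 tested genes per related list by size of change and the 2 named genes of closest profile for each. Marker genes and cyclin11 were named after their values were seen. Lists are name patterns. Patterns that had caught kinesin, sugar-nucleotide, embryo-lethal and other unrelated genes were narrowed after the matches and their values were seen.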

Additional observations from a re-analysis of the deposited data

How the results depend on the processing

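Over 15 alternatives, the falls of MCM7 and orc3 and the rises of FEN1 and orc1 kept their direction and their call. The rise of MCM6 did not pass in 7 of them and the fall of orc2 in 5, without a change of direction. Of the 8 genes, the number that rose went from 2 to 1 under median-of-ratios scaling, under quantile normalization and with the replicate block, and lay between 1 and 3 without 1 library at a time (1 without WT replicate 2, fl3 replicate 1 or fl3 replicate 2; without WT replicate 1 it was 3, namely SLD5, PCNA and FEN1). The number that fell lay between 2 and 3 without 1 library and was 4 under median-of-ratios scaling, which added pcna2. Of all 17272 tested genes, 7519 rose and 4107 fell on the values as deposited. Median-of-ratios scaling gave 5659 and 5952, and quantile normalization 5549 and 5947. The signs of PCNA (-0.069) and orc4 (-0.054) were reversed under median-of-ratios scaling, neither passing. With a mean of at least 5 FPKM, 4771 genes rose in place of 7519, since fewer genes were tested, and orc2 was below that filter. Without 1 library, 6920 to 7254 genes rose and 3672 to 3965 fell. Deviations of same-numbered libraries from their genotype mean had correlations of -0.15, 0.072 and -0.023 for numbers 1 to 3. Pairs of unlike number reached 0.13 (WT replicate 1 with fl3 replicate 3) and -0.14 (WT replicate 2 with fl3 replicate 3). Whether same-numbered libraries shared a batch was not tested. With the replicate block 7240 genes rose and 3897 fell, and MCM6 and orc2 did not pass (limma adjusted p = 0.0502 and 0.0584). Depth is unknown, so counting error at the low level of orc2 could not be given.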
